A study of Mus musculus with 8 samples.

Results

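The axon guidance ligands and receptors of mouse were described across 8 Affymetrix arrays of NS5 neural stem cells. The members were all genes on the array whose single symbol named a semaphorin of classes 3 to 7, a plexin, a neuropilin, an ephrin, an Eph receptor, a Slit, a Robo, a netrin, an Unc5 receptor or Dcc. The rule found 68 of 18193 genes, and each gene was read from the probe set with the highest mean log2 signal. Of these, 42 lay at or above the 40th percentile of mean signal and were tested among 10916 genes; the other 26 were too dim.

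NS5 is a line of neural stem cells which, per the labels, was derived from E11.5 mouse brain. Per the labels all cells were plated with FGF2 and EGF for 24 h and then held without growth factors for 4 h. They were next kept for 48 h in one of 4 conditions, with 2 arrays each: FGF2, ethanol (400 mg/dl) with FGF2, TGF-beta1, or ethanol with TGF-beta1. FGF2 is a mitogen of neural stem cells, and TGF-beta1 is a cytokine that signals through Smad transcription factors. The labels give a growth factor dose of 10 ng per ul, which the values cannot check. Whether the 2 samples of each group came from separate cultures is not stated, and the p-values then measure the spread between these samples, which may be technical. All samples come from 1 cell line, and each array read the RNA of a whole culture.

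Guidance cues steer growing axons and migrating cells. Netrins attract through Dcc and repel through Unc5 receptors, Slits repel through Robo receptors, semaphorins act through plexins, with neuropilins as co-receptors for the secreted class 3, and ephrins bind Eph receptor tyrosine kinases on neighbouring cells. Many of these genes are also expressed by neural progenitors, where Eph and ephrin contacts and semaphorins take part in progenitor proliferation and migration.

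Each array had been scaled to a trimmed mean of 500, and the median signal ran from 50.6 to 86.5. On the arrays labelled replicate 1 of FGF2 and of TGF-beta1 it was 50.7 and 50.6, and on the other 6 it was 65.0 or higher. Of 8 neural stem and radial glia markers 7 passed the signal filter on these arrays, among them Sox2 (6018 to 12161), Fabp7 (14386 to 36790) and Vim (18178 to 37741), whereas Prom1 (6.15 to 55.5) did not. The filter was also passed by 5 of 5 astrocyte, 7 of 9 neuronal, 5 of 6 mesenchymal and 3 of 6 oligodendrocyte lineage markers, by 1 of 6 microglial markers and by 0 of 5 endothelial ones. Fn1, which encodes fibronectin and is induced by TGF-beta1, was at 120 and 139 under FGF2 alone and at 3015 and 4109 under TGF-beta1 alone. With ethanol, replicate 2 matched its growth factor label (116 with FGF2, 8226 with TGF-beta1). Replicate 1 did not: Fn1 was 6828 for Ethanol and FGF2 but 124 for Ethanol and TGF-beta1. Pmepa1, a feedback inhibitor of TGF-beta signalling, showed the same split, with 8198 and 1081 on these 2 arrays. Every array was kept in its labelled group, and results that rest on these 2 arrays, the doubted arrays, are given with and without them. Without them each ethanol group has 1 array, and the SE and p-values then rest on the spread of the arrays without ethanol.

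To show the DNA upstream of members that differed between the growth factors, the 250 bases before the start site are given for Ntn4 (the largest negative difference of TGF-beta1 against FGF2), Sema3c (the largest positive one) and, chosen after its values were seen, Ephb1, whose signal was also low in TGF-beta1 (Robo2 had a slightly larger difference). They are RefSeq sequences of GRCm38.p6 at chr10:93640799-93641048 (plus strand), chr5:17574566-17574815 (plus strand) and chr9:102354694-102354943 (minus strand). Capitals mark CAGAC or its reverse complement GTCTG, a core that Smad proteins can bind.
Ntn4: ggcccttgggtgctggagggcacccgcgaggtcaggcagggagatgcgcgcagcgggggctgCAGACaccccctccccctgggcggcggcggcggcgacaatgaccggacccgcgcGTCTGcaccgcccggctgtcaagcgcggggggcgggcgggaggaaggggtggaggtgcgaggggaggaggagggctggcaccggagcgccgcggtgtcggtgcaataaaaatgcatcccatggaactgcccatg
Sema3c: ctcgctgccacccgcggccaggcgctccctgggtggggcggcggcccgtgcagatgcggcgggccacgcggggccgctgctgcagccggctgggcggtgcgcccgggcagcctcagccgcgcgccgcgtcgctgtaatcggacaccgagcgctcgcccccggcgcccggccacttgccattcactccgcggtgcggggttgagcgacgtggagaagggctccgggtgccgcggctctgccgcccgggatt
Ephb1: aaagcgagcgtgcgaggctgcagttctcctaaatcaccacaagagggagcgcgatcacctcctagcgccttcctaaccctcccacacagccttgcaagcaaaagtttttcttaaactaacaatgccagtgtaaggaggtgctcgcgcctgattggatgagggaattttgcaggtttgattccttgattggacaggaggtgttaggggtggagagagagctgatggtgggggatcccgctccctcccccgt
The window of Ntn4 held 2 matches, beginning 188 and 134 bases before the start, and those of Sema3c and Ephb1 held 0. On either strand CAGAC stood in 42.2% of all 32851 windows of this length. The longer palindrome GTCTAGAC stood in 0.167% and the AP-1 motif TGANTCA in 6.75%, and none of the 3 windows printed held either. Matches of different motifs can share bases, and a match is a description of the sequence, not a binding site. Promoter entries were found for 58 of the 68 members.

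The first comparison asked what TGF-beta1 did to these genes relative to FGF2 without ethanol. Ntn4 had the largest difference of any member, with a low signal in TGF-beta1, although it did not pass the test over all genes. Of 42 members 0 passed an adjusted p of 0.05 by limma, where 0% of all genes did, and 3 had an unadjusted p under 0.05 (4.95% of all genes). These were Epha4 above 0 (3.21% of all genes) and Ntn4 and Plxnc1 below 0 (1.74%). The signals of the groups did not overlap for 17 of 42 members, where they did not for 36.2% of all genes: 8 were higher in TGF-beta1 (20.4% of all genes) and 9 lower (15.8%). The median log2 fold change over the members was −0.25, with 16 of 42 above 0, and it was 0.02 over all genes, of which 52.4% lay above 0. Markers of other cell states differed in the same comparison, though 0 passed by limma. Of 7 tested neuronal markers 6 lay below 0, with 1 at an unadjusted p under 0.05: Dcx, which encodes a microtubule protein of young neurons, read 314 and 742 in FGF2, with 56.5 and 109 in TGF-beta1 (−2.30 ± 0.52, adjusted p = 0.981). All 7 markers of dividing cells lay above 0, from 0.95 to 1.17, with 4 at an unadjusted p under 0.05. Of 5 tested astrocyte markers 3 lay above 0, with Gfap at 3.40 ± 1.20 (534 and 61.9 in FGF2, 2102 and 2461 in TGF-beta1). Of 5 tested mesenchymal markers 3 did, with Col1a1 at 1.87 ± 0.71 (296 and 188, then 1068 and 810). The part of these markers in the values of Ntn4 and the other members was not tested. In bulk RNA, fewer cells of a type and less RNA per cell cannot be told apart.

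Ntn4 encodes netrin-4, a secreted netrin of basement membranes that binds laminin. Its signal was 2098 and 1361 under FGF2 but 441 and 457 under TGF-beta1, so both TGF-beta1 arrays lay below both FGF2 arrays and close to each other. The log2 fold change was −1.86 ± 0.25 (SE, n = 2 against 2), a 3.63-fold lower value on the scale with the added constant, at an unadjusted p of 4.52e-05 and an adjusted p of 0.322 by limma. Leaving out 1 array at a time gave adjusted p between 0.278 and 1.00, and a fit to the 4 arrays without ethanol gave 0.138. The dimmer probe set of Ntn4 read 206 and 156 under FGF2 but 50.8 and 167 under TGF-beta1, where the groups overlapped (log2 fold change −0.77 ± 0.45).

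**Figure D1:**
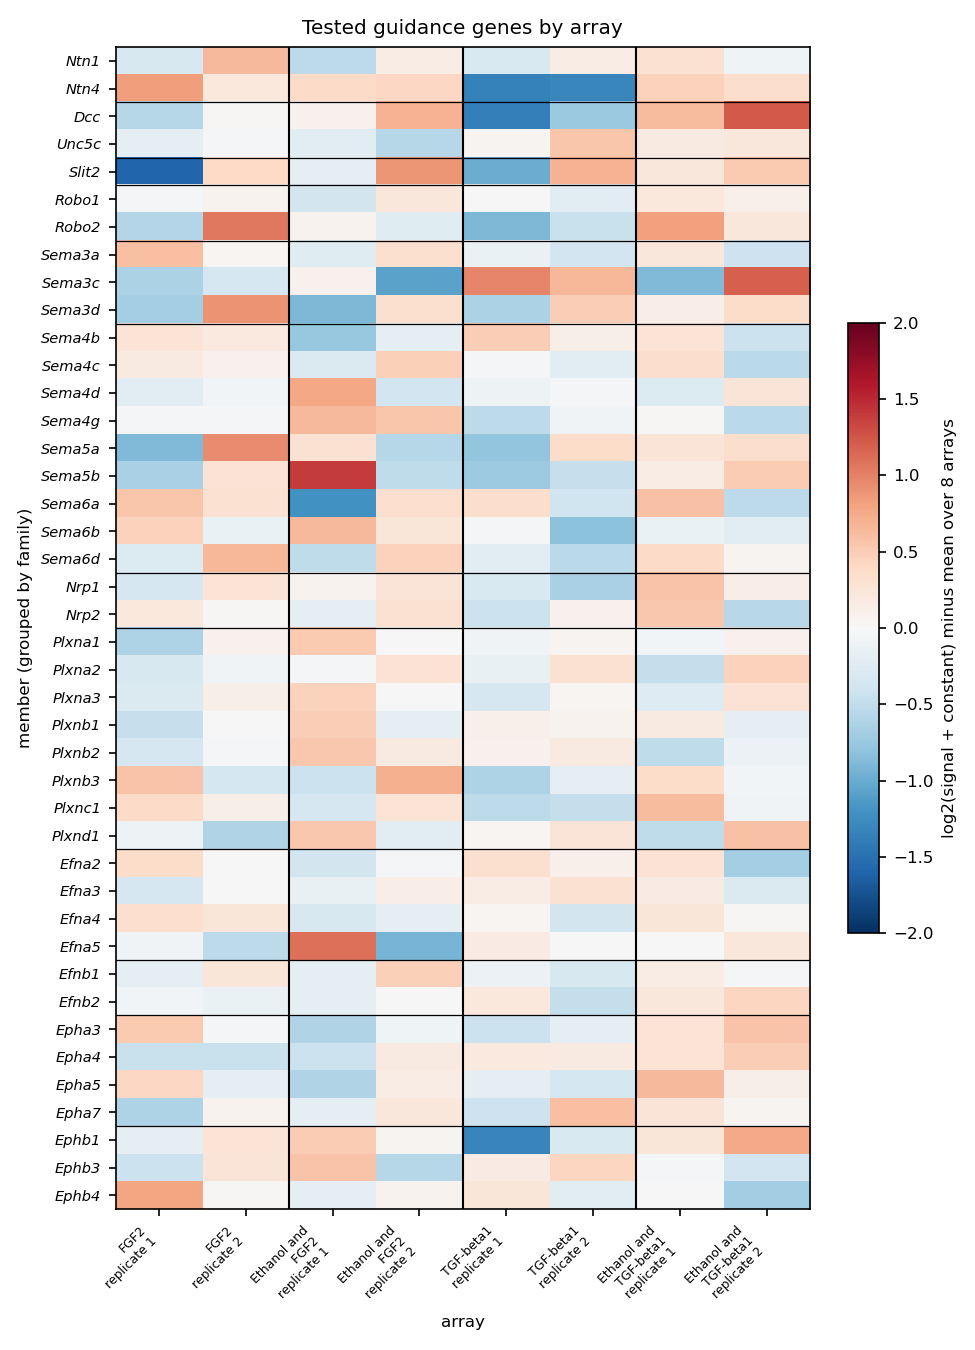
Heat map of the 42 tested members (rows, grouped by family) on the 8 arrays (columns), coloured by log2(signal + constant) minus the member's mean over all arrays. The Ntn4 row is blue on both TGF-beta1 arrays and pale to red on the other 6, where its signal was 1361 or higher.

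Among the receptors, the signal of Dcc, the receptor through which netrins attract axons, was 87.0 and 143 under FGF2 but 39.6 and 74.5 under TGF-beta1. The groups did not overlap, and the log2 fold change was −0.78 ± 0.43. Ephb1, a receptor for B-ephrins, had signals of 222 and 318 under FGF2 but 90.1 and 205 under TGF-beta1 (−0.85 ± 0.41). Here the higher TGF-beta1 array came close to the lower FGF2 array. Robo2, a Slit receptor, read 39.5 and 172 under FGF2 but 27.1 and 45.9 under TGF-beta1, with overlapping groups (−0.90 ± 0.57). Plxnc1, the receptor of Sema7a, read 2125 and 1771 under FGF2 but 1123 and 1167 under TGF-beta1 (−0.75 ± 0.30, unadjusted p = 0.0364, adjusted p = 0.981 by limma). The other tested probe sets of Plxnc1 differed in sign, at −0.54, −0.41, −0.12 and 0.22.

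In the other direction, Sema3c, a secreted semaphorin that acts through neuropilins and plexins, read 83.6 and 108 under FGF2 but 302 and 240 under TGF-beta1. The TGF-beta1 arrays were both higher, and the log2 fold change was 1.30 ± 0.65, not past the test (adjusted p = 0.982 by limma). Epha4, a receptor for ephrins of both classes, read 4625 and 4662 under FGF2 but 7245 and 7132 under TGF-beta1, with a spread within groups far smaller than the gap (0.63 ± 0.25, adjusted p = 0.981 by limma). The other 3 tested probe sets of Epha4 also lay above 0, at 0.39, 0.75 and 1.34. With ethanol its chosen probe set read 4698 and 7194 in FGF2, then 7616 and 8890 in TGF-beta1. Plxnd1, a receptor for class 3 semaphorins, read 62.0 and 37.0 under FGF2 but 70.8 and 86.3 under TGF-beta1 (0.50 ± 0.51). With ethanol it read 110 and 54.5 in FGF2, then 41.2 and 114 in TGF-beta1. Slit2 read 42.8 and 238 under FGF2, with 76.3 and 299 under TGF-beta1, a spread within each group larger than the gap (0.45 ± 0.73). With ethanol Slit2 read 152 and 344 in FGF2, then 209 and 263 in TGF-beta1.

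The same growth factor comparison in the presence of ethanol rests on both doubted arrays. As labelled, 0 of 42 members passed (0% of all genes), and 2 had an unadjusted p under 0.05 (2.63% of all genes), both lower (1.6%). The groups did not overlap for 9 (31.8%). Above 0 lay 25 of 42 (45.7%), but 20 of 41 without the doubted arrays (46.1%). The 2 were Sema4g, a class 4 semaphorin (673 and 629 with FGF2, 427 and 283 with TGF-beta1, log2 fold change −0.86 ± 0.30), and Plxnb2, a plexin for class 4 semaphorins (1797 and 1402 against 854 and 1131, −0.68 ± 0.25). Both had an adjusted p of 0.982 by limma. Ntn4 had a log2 fold change of 0.01 ± 0.25 here, with all 4 ethanol arrays between 1499 and 1618. Without the doubted arrays 1 ethanol array with FGF2 faced 1 with TGF-beta1, so neither group had a replicate and only sizes are given. Picked by their values, Sema3c stood at 2.27 (against 0.65 ± 0.65 with all arrays) and Efna5 at 1.15. Nrp2 stood at −0.86, Sema4c at −1.01 and Sema4g at −1.09. Plxnb2 moved to −0.30.

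Sema3c and Sema6a were among the members that split the ethanol arrays along with Fn1. Under ethanol with FGF2 the signal of Sema3c was 153 in replicate 1 and 55.6 in replicate 2, and under ethanol with TGF-beta1 66.5 and 359. The 2 arrays with high Fn1 thus had the higher Sema3c in both groups. The transmembrane semaphorin gene Sema6a did the reverse, at 898 and 2693 under ethanol with FGF2 and 3178 and 1458 under ethanol with TGF-beta1. Its other probe sets read 115 and 101, and 189 and 198, under ethanol with FGF2. Under ethanol with TGF-beta1 they read 164 and 114, and 173 and 102, lower on the array with high Fn1. Many members showed one split or the other. Also higher on both arrays with high Fn1 were Efna5, Plxnd1, Plxna1, Plxna3, Plxnb2, Ephb1, Sema4d, Sema5a, Sema5b and Unc5c. Lower on both were Sema4b, Efna2, Nrp2, Plxnc1, Sema3a, Sema4c, Sema6d, Nrp1, Ntn1, Ntn4 and Plxnb3. Epha5, Epha7, Robo1, Efna3, Efna4, Efnb1 and Ephb4 were lower on both too. The share of all genes with either split was not counted, so a link of these members to Fn1 was not tested. For the 17 members that separated TGF-beta1 from FGF2 in cells free of ethanol, the midpoint between the group means was taken. On its TGF-beta1 side lay 9 of them in replicate 1 of Ethanol and FGF2 and 5 in replicate 1 of Ethanol and TGF-beta1. The counts were 5 and 9 on the arrays labelled replicate 2, in the same order. Over the 3953 genes chosen alike, the shares were 58.6% and 21.6% on the doubted arrays and 31.1% and 45.4% on the others.

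The main question of the design was what ethanol did. Averaged over both growth factors (4 arrays against 4), Dcc and Ntn4 had the largest positive differences and Sema4b the largest negative one, and no member passed the test. By limma 0 of 42 members passed, where 1.98% of all genes did, and 5 had an unadjusted p under 0.05 (10.8% of all genes): Dcc, Ntn4, Ephb1 and Nrp1 above 0 (4.63% of all genes) and Sema4b below (6.16%). Of the members 30 of 42 lay above 0, with a median of 0.18, and of all genes 54% did, with a median of 0.03. With each array centred on its median the counts were 24 of 42 and 36.1%, and without the doubted arrays 25 of 41 and 53%. Without those arrays 5 members had an unadjusted p under 0.05 (10.4% of all genes): Dcc, Ntn4 and Epha4 (0.47 ± 0.17) above 0, and Sema4b and Efna2 (−0.56 ± 0.19) below. Markers of dividing cells moved strongly in the same comparison, as 7 of 7 measured fell, and their summed signal was 9211 to 29362 without ethanol and 1395 to 3230 with it. Of 7 tested neuronal markers 6 lay above 0 (54% of all genes) and 1 rose (0.183%): Celf4, at 2.76 ± 0.44 (adjusted p = 0.0128 by limma). The part of both marker lists in the values of the members was not tested.

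**Figure D2:**
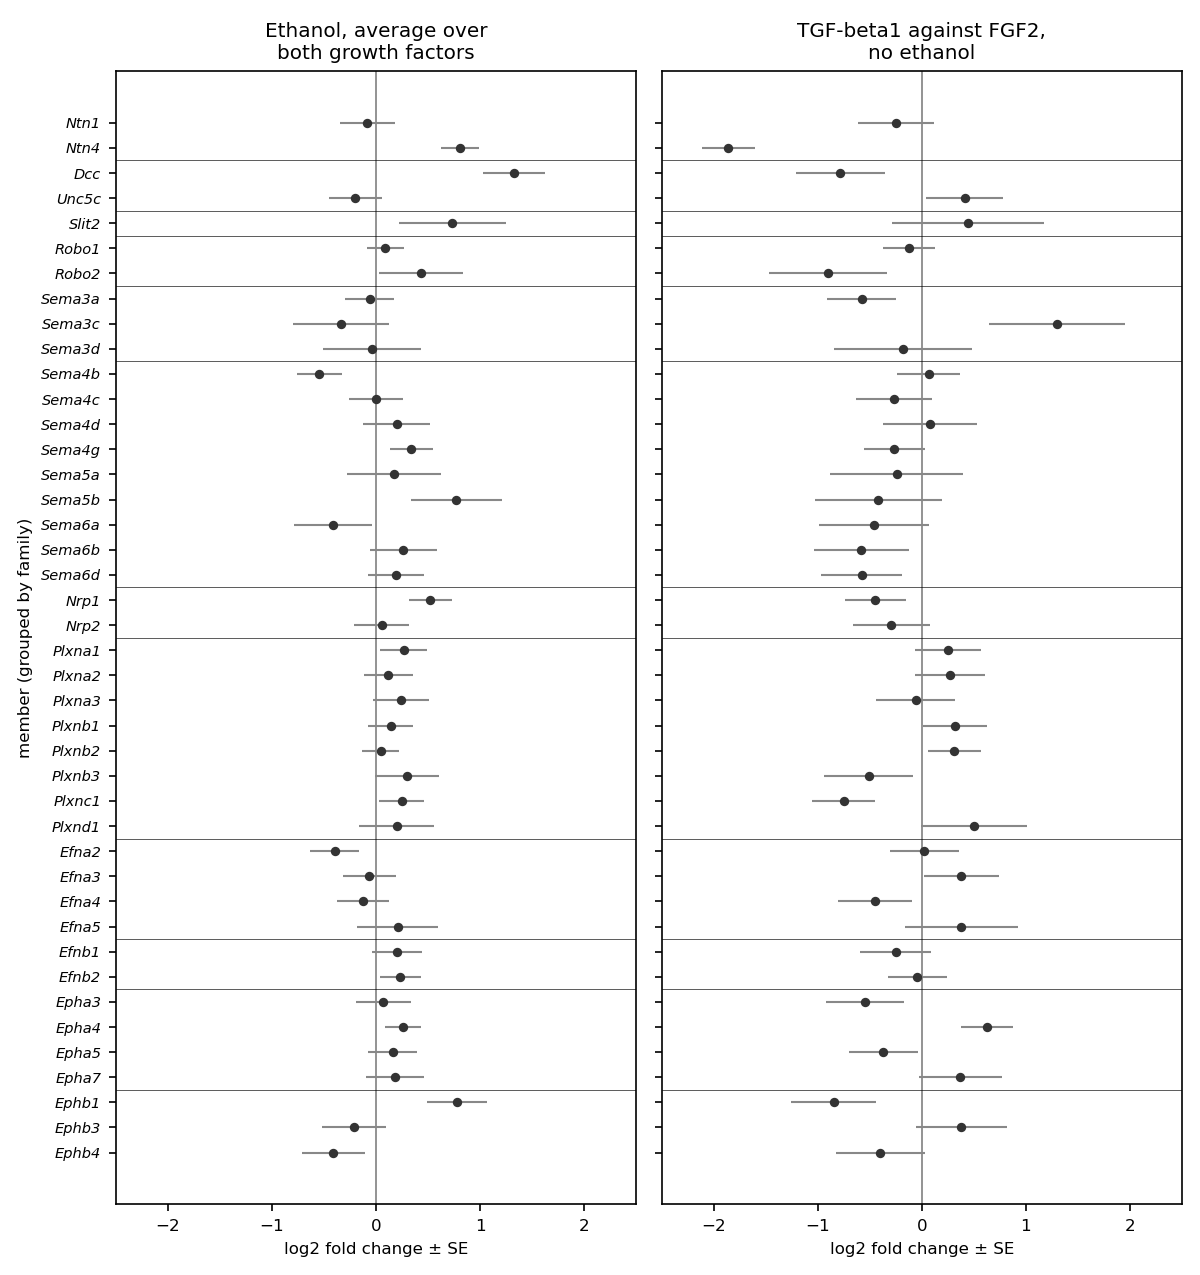
Log2 fold changes with standard errors for the 42 tested members, grouped by family, for ethanol averaged over both growth factors (left) and for TGF-beta1 against FGF2 without ethanol (right). Dcc (1.33) and Ntn4 (0.81) stand highest on the left, and Ntn4 (−1.86) and Sema3c (1.30) are the extremes on the right.

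Dcc was the one member whose signal on all 4 ethanol arrays exceeded that on all 4 others, a separation that 7.42% of all genes showed in either direction and 2.99% upward. For FGF2 cultures the ethanol arrays read 150 and 241 and the controls 87.0 and 143. For TGF-beta1 cultures the ethanol arrays read 231 and 361 and the controls 39.6 and 74.5. The gap was narrow in FGF2, where 143 faced 150, and wide in TGF-beta1. The average log2 fold change was 1.33 ± 0.30 (SE, higher in 4 of 4 ethanol arrays, adjusted p = 0.0729 by limma), and 1.63 ± 0.37 without the doubted arrays (adjusted p = 0.197 by limma). With the replicate number as a block the adjusted p was 0.0366. The adjusted p over the alternatives tried ran from 0.0366 to 0.317. The 2 other probe sets of Dcc were too dim to be tested, at 1.70 to 48.1.

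Ntn4 read 1532 and 1561 in Ethanol and FGF2 and 1618 and 1499 in Ethanol and TGF-beta1, so all 4 ethanol arrays lay within the range of the FGF2 arrays. The average log2 fold change of 0.81 ± 0.18 (adjusted p = 0.0655 by limma) averages −0.13 within FGF2 and 1.74 within TGF-beta1. Ephb1 read 377 and 270 in Ethanol and FGF2 and 313 and 454 in Ethanol and TGF-beta1 (0.78 ± 0.29, adjusted p = 0.353). Nrp1, the co-receptor of Sema3a, had an average of 0.52 ± 0.20 (adjusted p = 0.39 by limma). Sema5b, a membrane semaphorin, had 0.77 ± 0.43, with signals of 64.0 and 144 in FGF2, 339 and 72.3 once ethanol was added, 59.0 and 75.9 in TGF-beta1 and 129 and 170 once it was added. The 339 came from a doubted array, and the value was 0.38 ± 0.41 without the doubted arrays.

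Among the negative differences, Sema4b, a class 4 semaphorin, read 4622 and 4379 in FGF2, then 2243 and 3364 once ethanol was present. Under TGF-beta1 it read 5358 and 4135, then 4601 and 2834. The groups did not overlap in FGF2 and overlapped in TGF-beta1, and the average was −0.54 ± 0.21 (adjusted p = 0.39 by limma). Sema6a (−0.41 ± 0.37) was lowest on the 2 arrays with high Fn1 among the ethanol arrays, and the mean of its 3 probe sets gave 0.14. Without ethanol Sema6a read 3124 and 2635 in FGF2, then 2719 and 1597 in TGF-beta1. Ephb4, a receptor for ephrin-B2, read 233 and 127 in FGF2, 106 and 131 with ethanol, 151 and 103 in TGF-beta1 and 125 and 67.9 with ethanol (−0.41 ± 0.30). Efna2, a membrane-anchored A-ephrin, read 2196 and 1721, 1317 and 1662, 2138 and 1831, and 2091 and 1054 in the same order of groups (−0.40 ± 0.23). The groups overlapped in both growth factors for Sema6a and Ephb4, and for Efna2 in TGF-beta1 but not in FGF2. The dimmer probe set of Efna2, at 74.8 to 181, had the opposite sign. It had 0.19 ± 0.29 in the average and 0.49 ± 0.41 within TGF-beta1.

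**Figure D3:**
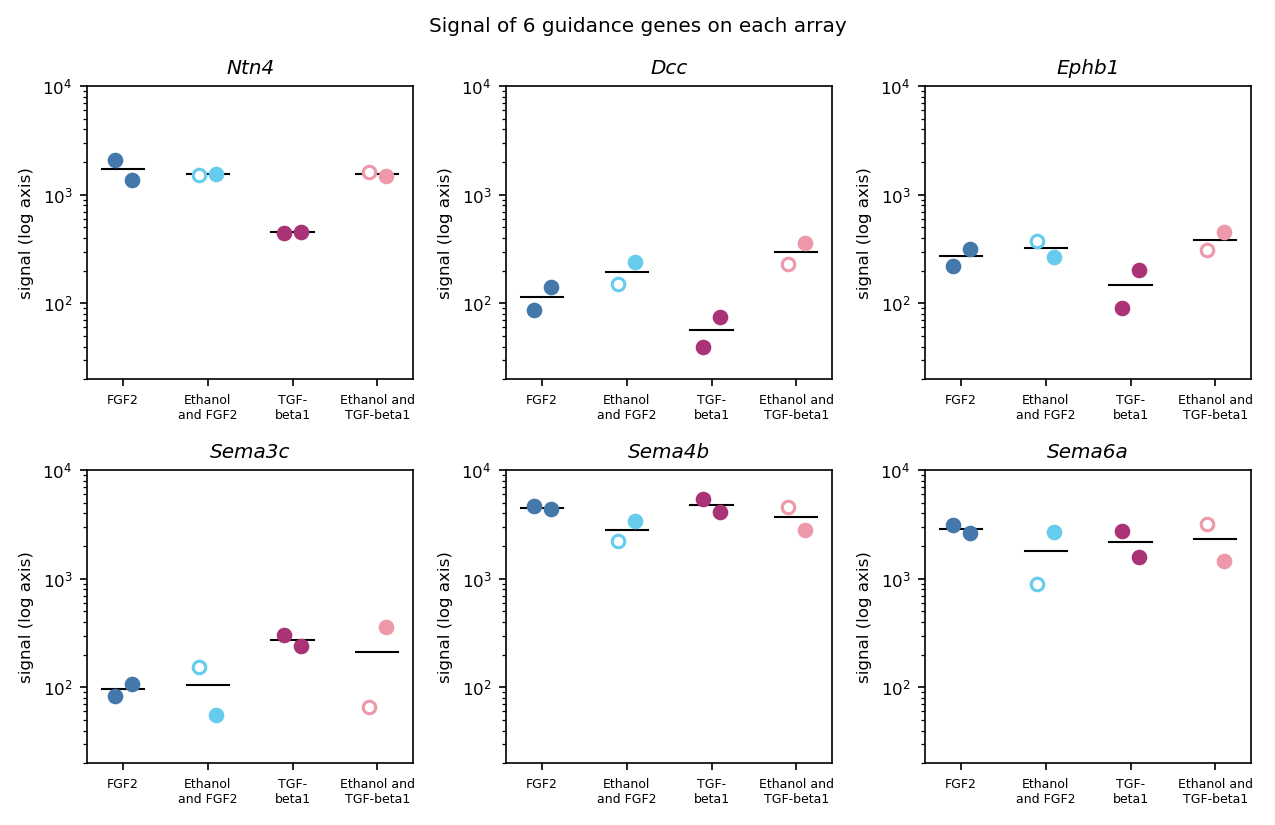
Signal of Ntn4, Dcc, Ephb1, Sema3c, Sema4b and Sema6a on each array (log axis), with a bar at each group mean of 2 arrays and open circles for the 2 doubted arrays. Ntn4 is near 450 in TGF-beta1 (441 and 457) and 1361 or higher elsewhere, while Sema3c and Sema6a spread widely within both ethanol groups.

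Within TGF-beta1, ethanol gave the single call among the members: Ntn4 rose 3.35-fold, from a mean of 449 (441 and 457) to one of 1559 ± 83.7 (SD, n = 2; 1618 and 1499). The log2 fold change was 1.74 ± 0.25 (SE, higher in 2 of 2 ethanol arrays, adjusted p = 0.0217 by limma). This was 1 of 42 members, or 2.38%, where 1.19% of all genes passed and 0.0733% rose. An unadjusted p under 0.05 was found for 5 members (9.48% of all genes), each above 0 (3.45%), and 31 of 42 lay above 0 (49.2% of all genes). The value was 1.69 ± 0.32 without the doubted arrays, as large, with an adjusted p of 0.238 by limma on 2 residual degrees of freedom. The call ended without any 1 of the 4 arrays of the comparison, with values from 1.69 to 1.80 and adjusted p from 0.0689 to 0.251. It also ended with the mean of both probe sets (1.41 ± 0.28, adjusted p = 0.0674), with median centring (1.59 ± 0.47, adjusted p = 0.214) and with the replicate block (adjusted p = 0.0589), all by limma. The dimmer probe set had 1.08 ± 0.45. This comparison and that of TGF-beta1 against FGF2 share the TGF-beta1 arrays, so the 2 values of Ntn4 are not independent.

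The 4 others at an unadjusted p under 0.05 were receptors or a co-receptor, none past the test. Dcc had 1.99 ± 0.43 (adjusted p = 0.074), Ephb1 1.31 ± 0.41 (0.29), Nrp1 0.84 ± 0.29 (0.366) and Plxnc1 0.78 ± 0.30 (0.462), all by limma. Nrp1 read 768 and 600 in TGF-beta1 and 1432 and 1057 with ethanol, without overlap. Plxnc1 read 1123 and 1167 against 2534 and 1541, and each of its 5 tested probe sets lay above 0, from 0.54 to 0.90. Robo2 read 27.1 and 45.9 against 142 and 87.1 (1.19 ± 0.57, adjusted p = 0.568), and its signal in Ethanol and FGF2 was 75.1 and 56.1. Of 42 members 15 had both ethanol arrays above both TGF-beta1 arrays, or 35.7%, where 22.2% of all genes did, and 2 had both below (25.7% of all genes). With each array centred on its median, 24 of 42 members lay above 0 in place of 31 (34.4% of all genes), with a median of 0.03. Without the doubted arrays 26 of 41 members lay above 0 (49.9% of all genes), with a median of 0.31. An unadjusted p under 0.05 was then found for 5 members (8.57% of all genes), of which 2 lay below 0: Dcc (2.29 ± 0.53), Ntn4 and Ephb1 (1.57 ± 0.53) above, and Efna2 (−0.89 ± 0.27) and Sema4b (−0.73 ± 0.26) below. Nrp1 (0.62 ± 0.35) and Plxnc1 (0.42 ± 0.24) no longer had one.

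Of 7 neuronal markers tested in the same comparison, 2 rose (Dcx and Celf4) and 7 lay above 0, and the summed signal of the 9 on the array was 5649 and 7236 in TGF-beta1 and 14773 and 9711 with ethanol. Most of that sum was Map2, at 5331 and 6588 without and 12179 and 8107 with ethanol, and Dcx went from 56.5 and 109 to 1013 and 413. Of the 9 markers 0 lay below the added constant on every array, and Stmn2 and Rbfox3 were too dim to be tested. In FGF2 the sums were 8435 and 11979, and with ethanol 9693 and 12773. Of the 7 tested markers 6 lay above 0 within FGF2 (55.5% of all genes), with Map2 at 0.01. An unadjusted p under 0.05 by limma was found there for 2 (8.31% of all genes). Celf4 read 65.6 and 241, then 483 and 832 with ethanol (2.10 ± 0.62). Tubb3 read 88.1 and 207, then 452 and 287 (1.26 ± 0.55). The part of these markers, and of the dividing cells, in the values of Ntn4, Dcc and Ephb1 was not tested.

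Within FGF2, 0 of 42 members passed by limma, as 0% of all genes did, and 1 had an unadjusted p under 0.05 (8.31% of all genes, 4.26% lower): Sema4b, at −0.71 ± 0.30 (adjusted p = 0.59). The groups did not overlap for 10 members (32% of all genes). The median over the members was 0.01, with 21 of 42 above 0 (55.5% of all genes). Without the doubted arrays 0 of 41 passed and 24 of 41 lay above 0 (55.8% of all genes). The 1 with an unadjusted p under 0.05 (5.55% of all genes) was then Epha4, at 0.63 ± 0.24, while Sema4b moved to −0.42 ± 0.26. With all arrays Ntn4 had −0.13 ± 0.25, Dcc 0.66 ± 0.43 and Ephb1 0.24 ± 0.41. Sema4g, at 411 and 408 without ethanol, read 673 and 629 with it (0.64 ± 0.30, adjusted p = 0.627 by limma). Efna5, an A-ephrin, read 621 and 450 in FGF2 but 1435 and 333 with ethanol, so the arrays of that group enclosed both controls. The ratio of 3' to 5' Gapdh signal, which reports RNA integrity, stood at 3.33 and 3.48 for ethanol with FGF2 but at 1.64 to 2.20 elsewhere. The same ratio for beta-actin did not separate these arrays, at 3.57 and 4.20 against 2.35 to 3.61. The part of RNA integrity in these values was not tested.

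The difference between the ethanol effects under TGF-beta1 and FGF2 was tested as an interaction. For Ntn4 it was 1.87 ± 0.36 (unadjusted p = 0.000561, adjusted p = 0.831 by limma), and 1.80 ± 0.45 without the doubted arrays. With all arrays, by limma 0 members passed (0% of all genes), and 4 had an unadjusted p under 0.05 (4.42% of all genes). Above 0 (1.69%) were Ntn4, Epha3 (1.32 ± 0.53) and Plxnc1 (1.05 ± 0.43), and below (2.72%) was Plxnb2 (−0.99 ± 0.36). In all, 25 of 42 lay above 0 (44.9% of all genes), and 22 of 41 without the doubted arrays (45.8%). The median over the members was 0.20 with all arrays and 0.01 without the doubted ones. Epha3, an A-ephrin receptor, read 209 and 133 in FGF2 and 82.6 and 128 with ethanol, but 96.1 and 118 in TGF-beta1 and 172 and 216 with ethanol. Plxnb2 ran the other way, at 967 and 1210 in FGF2 and 1797 and 1402 with ethanol, and 1304 and 1400 in TGF-beta1 and 854 and 1131 with ethanol. Without the doubted arrays Ntn4 was the 1 member with an unadjusted p under 0.05 (1.93% of all genes): Plxnc1 moved to 0.39 ± 0.35, Plxnb2 to −0.62 ± 0.37 and Epha3 to 1.21 ± 0.67. No member passed the test of a difference between the ethanol effects, with these arrays or without them.

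**Figure D4:**
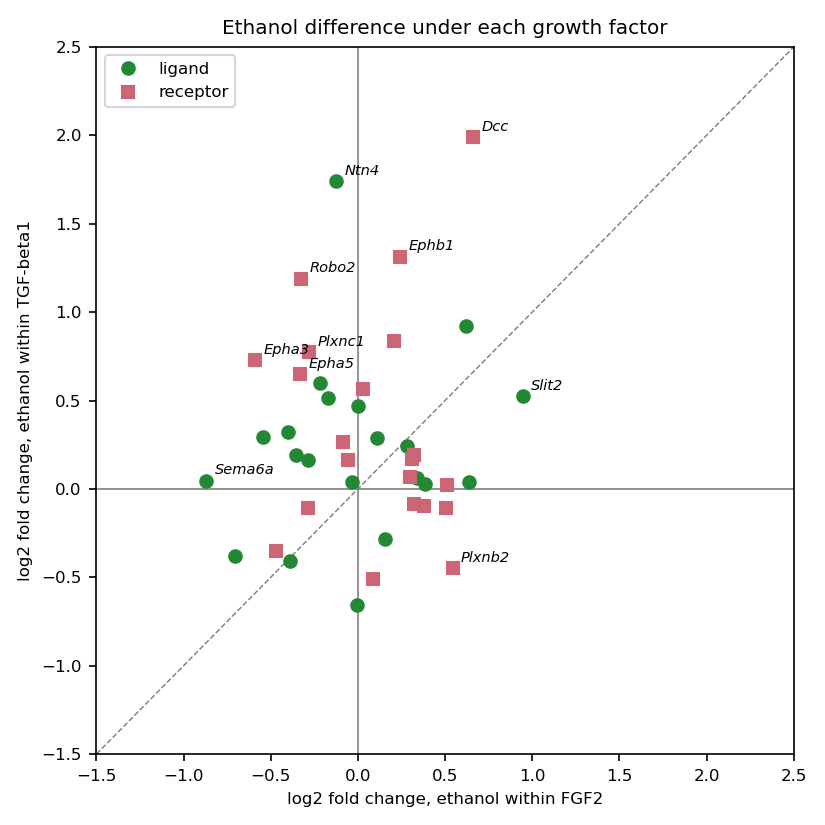
Ethanol difference within FGF2 (horizontal, log2 fold change) against that within TGF-beta1 (vertical) for the 42 tested members, with ligands as circles, receptors as squares and equality as a dashed line. Ntn4 (−0.13 and 1.74) and Dcc (0.66 and 1.99) stand at the top, and 31 of 42 members lie above 0 on the vertical axis and 21 on the horizontal one. With each array centred on its median, which is not drawn, these counts were 24 and 19.

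By family, all 8 tested plexins of 9 lay above 0 in the ethanol average, between 0.05 and 0.30, each within 2 standard errors of 0. With median centring the median of all genes was −0.10 in place of 0.03, so part of these values depends on the scaling. Without the doubted arrays Plxnb1 turned to −0.13, and the other 7 stayed above 0. The 4 tested EphA receptors of 9 lay at 0.07 to 0.26, and the 3 tested class 3 semaphorins of 7 at −0.33 to −0.04. Without the doubted arrays all 4 EphA receptors lay above 0, at 0.21 to 0.47, whereas among the class 3 semaphorins Sema3d turned to 0.32 and Sema3c moved to −0.10. The netrin relative Ntn1, a diffusible attractant, read 1287 and 2532 under FGF2, with 1294 and 1779 under TGF-beta1 (−0.25 ± 0.37) and had −0.08 ± 0.26 in the ethanol average. Unc5c, the other tested netrin receptor, had −0.20 ± 0.26 in the average and 0.41 ± 0.37 for TGF-beta1.

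The steadiest member was Robo1, the other tested Robo, which ran from 5136 to 7714 over all 8 arrays, a ratio of 1.5. The ratio of highest to lowest signal was 9.12 for Dcc, 8.02 for Slit2, 6.46 for Sema3c and 6.34 for Robo2, and lay between 1.69 and 5.94 for the other 37. Replicates of a group were at least 2-fold apart for 5 members in FGF2, 11 in Ethanol and FGF2, 6 in TGF-beta1 and 4 in Ethanol and TGF-beta1. Some dim members were low on both arrays of low median signal: Slit2 read 42.8 and 76.3 on replicate 1 of FGF2 and TGF-beta1 against 238 and 299 on replicate 2, and Sema3d 32.0 and 33.6 against 142 and 101. Sema5a read 60.3 and 66.4 against 276 and 176. Dcc, at 87.0 and 39.6 against 143 and 74.5, and Ephb1, at 222 and 90.1 against 318 and 205, were lower there too. Not all members were: Ntn4 read 2098 and 441 against 1361 and 457. Both arrays are without ethanol, so they also enter the ethanol differences of Dcc and Ephb1. The part of the array medians in these values was not tested.

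The 26 members that were not tested had median signals from 4.73 (Ephb6) to 45.7 (Slit1), near the added constant of 23.7, and none exceeded 88.0 on any array. They were 4 class 3 semaphorins (Sema3b, Sema3e, Sema3f, Sema3g), 4 membrane-bound ones (Sema4a, Sema4f, Sema6c, Sema7a), Efna1, Efnb3, 5 EphA receptors (Epha1, Epha2, Epha6, Epha8, Epha10), Ephb6, Ntn3, Ntn5, Plxna4, Robo3, Robo4, Slit1, Slit3, Unc5a, Unc5b and Unc5d. With no signal filter none of these was called in any of the 6 comparisons. Of the 22 members with more than 1 tested probe set, the probe sets had 1 sign for 14 in the ethanol average, 14 within TGF-beta1 and 11 for TGF-beta1 against FGF2. Epha5, an ephrin-A receptor, shows the scatter: its 4 probe sets had 0.14, 0.16, 0.87 and 0.97 in the ethanol average.

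Of 21 further guidance cues and co-receptors 15 were tested, and 0 passed in any comparison by limma. In the ethanol average their median was 0.13, and 5 of 15 had an unadjusted p under 0.05, where 10.8% of all genes did: Nrcam (0.60 ± 0.16), Draxin (0.59 ± 0.17), Cdon (0.79 ± 0.33), Neo1, a Dcc relative that binds netrins and repulsive guidance molecules (0.53 ± 0.22), and Chl1, an L1-type adhesion molecule (−0.98 ± 0.31). Of the signalling effectors 48 of 52 were on the array and 44 were tested, with a median of 0.16, and 1 of 44 rose, where 0.183% of all genes did. This was Pak3, a kinase downstream of Rac and Cdc42, which read 77.0 and 200 in FGF2, 268 and 421 with ethanol, 50.0 and 89.1 in TGF-beta1 and 578 and 367 with ethanol. Its log2 fold change was 1.84 ± 0.33 (adjusted p = 0.0243 by limma), with 3 of 3 tested probe sets above 0, and 1.83 ± 0.43 without the doubted arrays (adjusted p = 0.202). An unadjusted p under 0.05 by limma was found for 7 of the 44 (10.8% of all genes). The next 2 genes were picked after their values were seen. Chn1, a Rac GTPase-activating protein that acts after EphA4, had −1.05 ± 0.25 (adjusted p = 0.0899 by limma). The Slit-Robo GTPase-activating protein gene Srgap1 had 1.00 ± 0.34.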

How the data were processed

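Deposited values were linear signal intensities, 1 per probe set and array, made by the authors with MAS5 and GCOS per the submitters' processing notes, with versions not given in the sources used here. The deposited intensities had equal trimmed means, so each array had been scaled to 1 target. No detection calls or scanned images were used here. RNA was prepared with RNeasy columns and labelled in 1 cycle as biotin cRNA, per the labels.

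Of 45101 probe sets, 34945 had exactly 1 gene symbol, 932 had several, 9160 had none and 64 were controls; only the first were used. Symbols came from the platform annotation. A constant of 23.7, equal to the 25th percentile of the signals, was added before taking log2, and fold changes are on that scale, which understates changes of dim genes. Genes whose mean reached the 40th percentile were tested with limma 3.58.1 (R 4.3.3), with 4 group means, 4 residual degrees of freedom, a trended prior and Benjamini-Hochberg adjustment over 10916 genes within each of 6 comparisons. SE are moderated; means ± SD are of linear signals. The number of arrays limits the precision. Signals of different probe sets are not compared as levels, and sums over markers serve only to set arrays side by side.

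The members and lists were chosen with earlier results of these data known. Named with every signal are members past the threshold and the 4 largest rises and falls of the ethanol average and of TGF-beta1 against FGF2. Named after their values were seen were, among others, Nrp1, Nrp2, Plxnc1, Plxnb2, Epha3, Epha5, Sema3d, Sema4c, Sema4g and Sema5a. So were Ntn1, Efna5, Robo1, Unc5c and the list genes Chn1 and Srgap1. The fit was tested on simulated data. Alternatives were the constant, the filter, quantile or median scaling, the probe set rule, no trend, a replicate block, an additive model, the 4 arrays without ethanol alone, and leaving out arrays. Gene lists were described by counts and medians, with no set test.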

Additional observations from a re-analysis of the deposited data

How the results depend on the processing

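Of the 17 named values, 313 of 327 alternative fits kept the direction and the side of the threshold. Just 1 of these values was past the threshold at first: Ntn4 for ethanol within TGF-beta1. Its direction held, but 11 fits kept the call and 8 lost it. A value not called at first could change sides only by becoming a call, so the pooled count says little about the call. The count of members called for ethanol within TGF-beta1 was 1 and became 0 with median centring, with the mean of probe sets, with the replicate block and without both doubted arrays; leaving out 1 array at a time gave 0 to 1. The count in the ethanol average was 0 and became 1 with quantile normalization (Ntn4) and with the replicate block (Dcc); leaving out 1 array gave 0 to 1, the 1 being Ntn4 without FGF2 replicate 1 (0.96 ± 0.17, adjusted p = 0.0414 by limma). The other 4 comparisons gave 0 members called under every alternative run, by limma. Directions reversed for Sema6a in the ethanol average with the mean of probe sets (0.14), and for Slit2 in TGF-beta1 against FGF2 without FGF2 replicate 1 (−0.54) or TGF-beta1 replicate 2 (−0.40), in a range of −0.54 to 1.43 over the arrays left out. The cause of these changes was not tested, beyond the fewer arrays. With 1 array left in a group, that array is assumed to vary like the others.

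Over all genes, the ethanol average gave 216 calls, 119 with the filter at the 60th percentile, 93 without TGF-beta1 replicate 1 and 0 when neither doubted array was used (1139 with unadjusted p below 0.05 by limma). Ethanol within TGF-beta1 gave 130 calls, 75 with that filter, 85 with the mean of probe sets, 0 with the replicate block, 0 without both doubted arrays and 0 to 159 without 1 array. Ethanol within FGF2 gave 0 by limma (907 at an unadjusted p under 0.05), with 22 under no filter or quantile normalization, 31 under median centring and up to 76 without 1 array. TGF-beta1 against FGF2 without ethanol gave 0 by limma (540 at an unadjusted p under 0.05), and 5 on the 4 arrays without ethanol. Median centring moved the median of all genes in the ethanol average from 0.03 to −0.10 and within TGF-beta1 from −0.01 to −0.16.

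The replicate numbers are shared by all groups, but the labels do not say that they pair samples. The deviations of same-numbered arrays correlated at 0.47 between FGF2 and TGF-beta1 and at −0.44 between the ethanol groups, with the other pairs of groups from −0.13 to 0.04, so the block is given only as an alternative. Dim members lie near the added constant, where the size of a fold change depends on it: the average for Dcc was 1.52 with the constant at the 10th percentile and 0.89 with a constant of 100.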
